A study of Homo sapiens with 51 samples.

Results

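The genes of 6 transcription factors that accompany epithelial-mesenchymal transition were followed across the series: TCF4, TCF3, KLF8, SOX9, SOX4 and PRRX1. They were taken by symbol, all 6 were present in every part of the deposited table, and they stand among 24033 symbols in all. The series measured total RNA, after removal of ribosomal RNA, in 51 libraries from HMLE cells, an immortalised human mammary epithelial line, and from HMLE-TWIST1 cells, the same line made to overexpress the transcription factor TWIST1. The vector, its promoter and whether the line is 1 clone were not given in the sources used here. There were 17 groups of 3 libraries. Chaetocin, a fungal compound used as an inhibitor of SUV39H1 and SUV39H2, enzymes that methylate lysine 9 of histone H3, though not of these alone, was given to HMLE-TWIST1 cells at 100, 150, 200 or 500 nM for 48 h, and these day 2 groups were set against HMLE-TWIST1 cells in the solvent DMSO for the same time. Other HMLE-TWIST1 cells had 80 nM chaetocin for 15 h and then 48 h without it, and were set against cells that had DMSO for 15 h before the same recovery; the labels call this day 4. Wild-type HMLE cells had DMSO on both schedules and no chaetocin. Both lines were also transfected with Dicer-substrate siRNA against SUV39H1 and SUV39H2, or with a scrambled duplex, and collected after 48 h (day 2) or after a further 48 h in fresh medium (day 4).

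TCF3 and TCF4 encode the class I basic helix-loop-helix proteins E2A and E2-2, which bind E-box DNA as partners of tissue-restricted factors such as TWIST1, and ID proteins block them by taking up the partner surface. KLF8 is a zinc finger factor that binds GC-rich and CACCC-type DNA, SOX4 and SOX9 bind DNA through an HMG box, and PRRX1 is a paired-type homeodomain factor of mesenchyme. Each has been placed among the regulators of epithelial-mesenchymal transition, in which epithelial cells lose E-cadherin and junctions and take on a migratory, matrix-producing state; SOX9 and SOX4 are in addition known for roles in mammary epithelial progenitor cells.

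Promoter windows of 4 of the genes show how unlike the starts of these genes are in base composition. They come from RefSeq on GRCh38.p14 and run from 250 bases before a start to 50 bases after it. SOX4 lies at chr6:21593501-21593800 on the plus strand, PRRX1 at chr1:170663881-170664180 on the plus strand and TCF3 at chr19:1652566-1652865 on the minus strand, and in these the CpG pairs are in capitals. For KLF8 the window at chrX:55908035-55908334 on the plus strand is shown with the matches to a KLF motif and a SOX motif in capitals; of the 4 KLF8 windows in the table it was picked because it holds the most matches.
SOX4: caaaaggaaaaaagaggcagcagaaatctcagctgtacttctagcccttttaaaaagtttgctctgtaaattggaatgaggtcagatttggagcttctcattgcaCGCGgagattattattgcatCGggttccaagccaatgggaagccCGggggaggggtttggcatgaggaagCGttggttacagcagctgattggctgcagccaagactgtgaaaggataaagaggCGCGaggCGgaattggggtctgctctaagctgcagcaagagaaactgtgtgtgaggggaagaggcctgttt
PRRX1: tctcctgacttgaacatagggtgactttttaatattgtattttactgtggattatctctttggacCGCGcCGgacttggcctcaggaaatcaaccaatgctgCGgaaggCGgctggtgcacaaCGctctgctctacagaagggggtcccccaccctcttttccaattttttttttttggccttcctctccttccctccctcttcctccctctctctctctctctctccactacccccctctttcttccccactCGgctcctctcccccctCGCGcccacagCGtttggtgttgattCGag
TCF3: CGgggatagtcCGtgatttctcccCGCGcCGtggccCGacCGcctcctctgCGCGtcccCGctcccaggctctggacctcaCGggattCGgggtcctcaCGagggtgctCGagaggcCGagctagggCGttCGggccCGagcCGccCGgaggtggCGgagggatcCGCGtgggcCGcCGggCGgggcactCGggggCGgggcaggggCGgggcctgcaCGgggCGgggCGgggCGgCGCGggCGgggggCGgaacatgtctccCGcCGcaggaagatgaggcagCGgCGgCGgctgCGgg
KLF8: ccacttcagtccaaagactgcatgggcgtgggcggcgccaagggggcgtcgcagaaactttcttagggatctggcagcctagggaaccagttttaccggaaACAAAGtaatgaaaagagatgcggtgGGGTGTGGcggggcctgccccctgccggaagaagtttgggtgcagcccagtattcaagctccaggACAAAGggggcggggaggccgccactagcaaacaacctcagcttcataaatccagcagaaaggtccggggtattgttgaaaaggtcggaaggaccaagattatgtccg
TCF3 held 43 CpG pairs and 78.3% G or C in its window, SOX4 held 8 and 49.3%, and PRRX1 held 11 and 53.0%. The median of 35116 RefSeq windows was 14 pairs and 58.7%. The KLF motif, GGGTGTGG or its reverse complement, matched the KLF8 window shown from base -123 relative to the start, and 3.28% of all windows held a match. The SOX motif, ACAAAG or ACAATG on either strand, matched it from bases -149 and -58, and 24.5% of windows held one. Of the other KLF8 windows, 1 held both motifs, 1 held the SOX motif alone and 1 held neither, so the shares over all windows do not gauge the picked one. The other window with both, at chrX:55907873-55908172, overlaps the one shown, and its matches are sites that the shown window also holds. The E-box CAGGTG, which 20.6% of windows held, and TAATTA, the paired-type homeodomain motif that 4.84% held, had no match in the 17 windows found for 5 of the 6 genes.

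The libraries held between 7897060 and 15662385 reads in the listed genes. The lines carried their labelled identity: the 5 epithelial markers (CDH1, EPCAM, KRT5, KRT14, TP63) summed to 4837 to 11671 CPM (reads scaled to library size) in the 18 HMLE libraries and 0.909 to 8.46 CPM in the 33 HMLE-TWIST1 libraries, and the 5 mesenchymal markers (VIM, CDH2, FN1, ZEB1, COL5A1) to 754 to 3280 and 5603 to 30600 CPM. Markers of leukocytes, endothelium, glia and muscle summed to at most 14.9 CPM in any library, over the markers among the 19007 symbols found in every part of the table. That set did not hold CD3E, PECAM1, CDH5, S100B, DES, MYOD1 or PTPRC, of which PTPRC was tested only in the fit of the day 2 DMSO and dose libraries and is given with the doses. The 2 adipocyte markers in that set (FABP4, PLIN1; not ADIPOQ or LEP) summed to 9.01 to 447 CPM in HMLE and 0.199 to 2.30 CPM in HMLE-TWIST1. The nuclear RNA MALAT1 took 3.90 to 11.6% of reads in HMLE and 1.48 to 4.0% in HMLE-TWIST1. Both targets had lower means in knockdown than in scramble cells in all 4 pairs of groups. SUV39H1 went from 6.48 to 2.56 CPM at day 2 and 3.41 to 1.82 CPM at day 4 in HMLE, and from 12.7 to 4.71 CPM at day 2 in HMLE-TWIST1. SUV39H2 went from 8.85 to 6.60, from 6.86 to 4.82 and from 45.6 to 19.9 CPM in the same pairs. In HMLE-TWIST1 at day 4, SUV39H1 was at 9.43 ± 1.01 CPM in scramble and 4.58 ± 0.0959 CPM in knockdown cells (SD, n = 3), and SUV39H2 at 42.7 ± 2.61 and 24.6 ± 1.15 CPM.

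Between the lines the 6 genes parted into 3 behaviours. SOX9, KLF8 and SOX4 were expressed in HMLE and far lower in HMLE-TWIST1 in all 4 control settings, PRRX1 was close to undetected in HMLE and abundant in HMLE-TWIST1, and TCF3 and TCF4 were expressed in both. By median level per length (RPKM, reads scaled to gene length and library size), the order in HMLE was SOX9 (32.5), SOX4 (25.7), TCF3 (14.5), KLF8 (8.95), TCF4 (3.05) and PRRX1 (0.0958), over 18 libraries. In HMLE-TWIST1 it was PRRX1 (19.0), TCF3 (14.9), SOX4 (4.28), TCF4 (2.01), SOX9 (0.684) and KLF8 (0.228), over 33 libraries. PRRX1 moved from last to first, and SOX9 from the first to the fifth place.

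**Figure D1:**
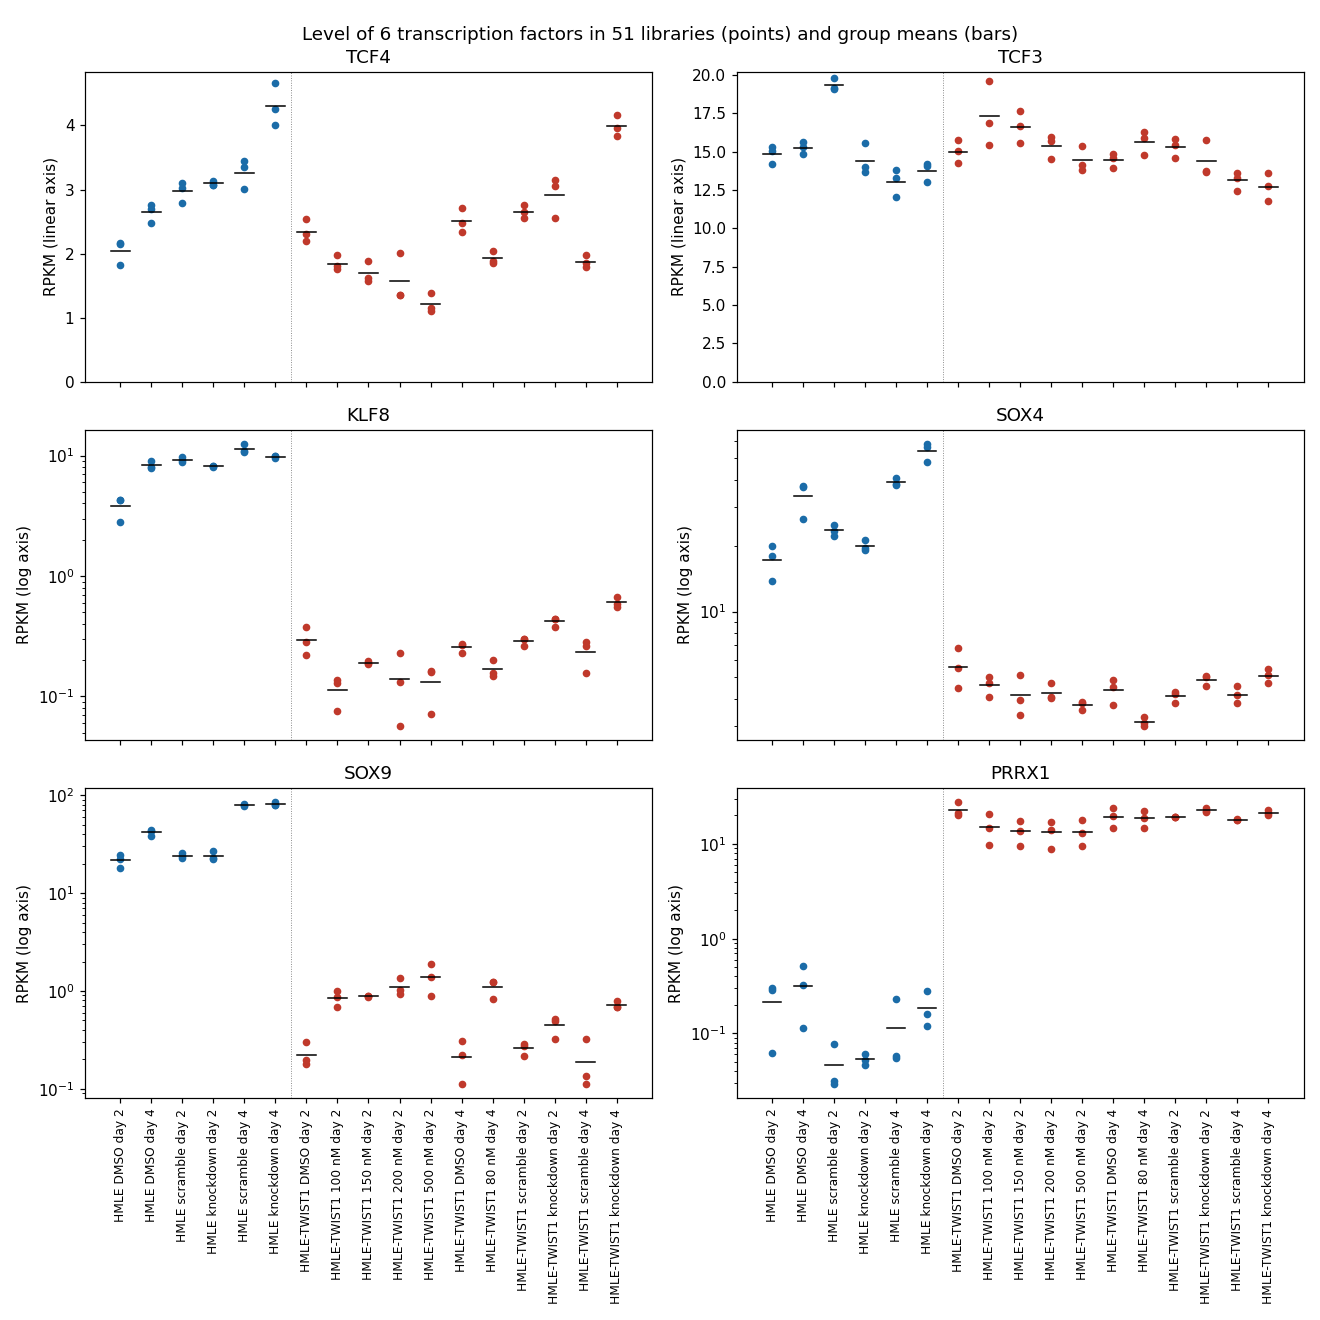
Level of each factor (y axis, RPKM; linear for TCF4 and TCF3, logarithmic for the others) in each library (points) of the 17 groups (x axis), with group means as bars; HMLE blue, HMLE-TWIST1 red. SOX9, SOX4 and KLF8 do not overlap between the lines in any group, PRRX1 is at most 0.519 RPKM in HMLE and at least 8.91 in HMLE-TWIST1, and TCF4 and TCF3 share their range.

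The tests gave the same picture, with different numbers of genes past the threshold in each setting (limma, Benjamini-Hochberg adjusted p under 0.05, n = 3 libraries per group). Nothing in the sources says that the libraries of a group came from separate cultures, so these p-values measure the spread between libraries, which may be technical. In DMSO at day 2, 4 of the 6 genes passed, 1 higher and 3 lower, beside 47.5% of the 18771 genes tested. For DMSO at day 4 it was again 4, beside 67.2%, and in scramble cells 5 at day 2, beside 68.7%, and 5 at day 4, beside 74.4%. With so large a share of all genes differing between the lines, these counts do not set the 6 factors apart. Over the 6 genes the median log2 change was -0.82 and -1.53 in DMSO at days 2 and 4, and -1.42 and -2.02 in scramble cells. Over all genes tested it was 0.01, 0.02, -0.01 and -0.01 in the same order. The 6 genes were chosen with earlier results of these data known, so their median does not set them apart either.

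SOX9, the HMG-box factor of chondrocytes and epithelial progenitors, had the largest loss of the 6. Its level in DMSO at day 2 was 24.6, 22.0 and 18.03 RPKM in the 3 HMLE libraries and 0.179, 0.299 and 0.196 RPKM in the HMLE-TWIST1 libraries, the latter from 7, 16 and 10 reads. The groups were far apart. The log2 difference was -6.36 (SE 0.25, adjusted p = 7.46e-13) at day 2 and -7.43 at day 4 in DMSO, -6.35 at day 2 in scramble cells and -8.53 (adjusted p = 4.18e-11) at day 4. SOX9-AS1, a separately listed antisense gene at this locus, had 0 to 68 reads per library, and how the counting treated strand was not given in the sources used here.

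KLF8 in DMSO at day 2 was at 4.24, 2.82 and 4.28 RPKM in HMLE and 0.223, 0.285 and 0.377 RPKM in HMLE-TWIST1, from 20, 35 and 44 reads. Every HMLE library lay above every HMLE-TWIST1 library. The log2 differences were -3.61 (SE 0.37, adjusted p = 2.63e-07) and -4.94 in DMSO at days 2 and 4, and -4.93 and -5.54 in scramble cells. KLF8 has been described as a repressor of E-cadherin, and here it was high in the line in which CDH1 was expressed.

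SOX4, a class C SOX factor, differed less. It stood at 19.9, 17.9 and 13.8 RPKM in HMLE and 5.54, 6.79 and 4.48 RPKM in HMLE-TWIST1 in DMSO at day 2, with no overlap. Its log2 differences were -1.63 (SE 0.17, adjusted p = 3.26e-07), -2.95, -2.51 and -3.23 in the 4 settings in the same order. At 163 to 451 reads per library it remained well counted in HMLE-TWIST1, unlike SOX9 and KLF8.

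PRRX1 went the other way. In scramble cells at day 2 it had 7, 3 and 3 reads in HMLE (0.0780, 0.0294 and 0.0313 RPKM) and 2490, 2108 and 2216 reads in HMLE-TWIST1 (19.3, 19.1 and 19.2 RPKM). All 33 HMLE-TWIST1 libraries held at least 704 reads, and no HMLE library more than 52. The fitted log2 differences, 6.80 and 6.0 in DMSO and 8.28 and 7.29 in scramble cells (largest adjusted p = 3.77e-05), rest on few HMLE reads and so on the count added before the logarithm. In HMLE cells with DMSO, replicate 1 was the lowest at both days (7 reads against 36 and 29 at day 2, 7 against 52 and 24 at day 4).

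TCF3 passed the test between the lines in 1 of the 4 settings. It was, in DMSO at day 2, at 15.1, 15.3 and 14.2 RPKM in HMLE and 15.7, 15.0 and 14.3 RPKM in HMLE-TWIST1, the groups overlapped, and the log2 difference was 0.00 (95% interval -0.20 to 0.19). In scramble cells at day 2 it was lower in HMLE-TWIST1 by a log2 difference of -0.34 (SE 0.07, adjusted p = 0.000142). At day 4 in scramble cells the difference was again 0.00 (adjusted p = 0.992), but scaling by total reads, which moves the median of all genes by 0.383 there, gave 0.38 (adjusted p = 0.000237).

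TCF4 was at 2.14, 2.17 and 1.83 RPKM in HMLE and 2.30, 2.20 and 2.53 RPKM in HMLE-TWIST1 in DMSO at day 2, a log2 difference of 0.18 (SE 0.14, adjusted p = 0.315). In DMSO at day 4 the difference was -0.10 (adjusted p = 0.276; 0.11 with scaling by total reads). In scramble cells it was -0.16 at day 2 (adjusted p = 0.0553, and 0.0462 with precision weights) and -0.81 at day 4 (SE 0.07, adjusted p = 9.30e-09). At day 4 the scramble libraries were at 3.44, 3.34 and 3.01 RPKM in HMLE and 1.98, 1.85 and 1.79 RPKM in HMLE-TWIST1, without overlap.

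**Figure D2:**
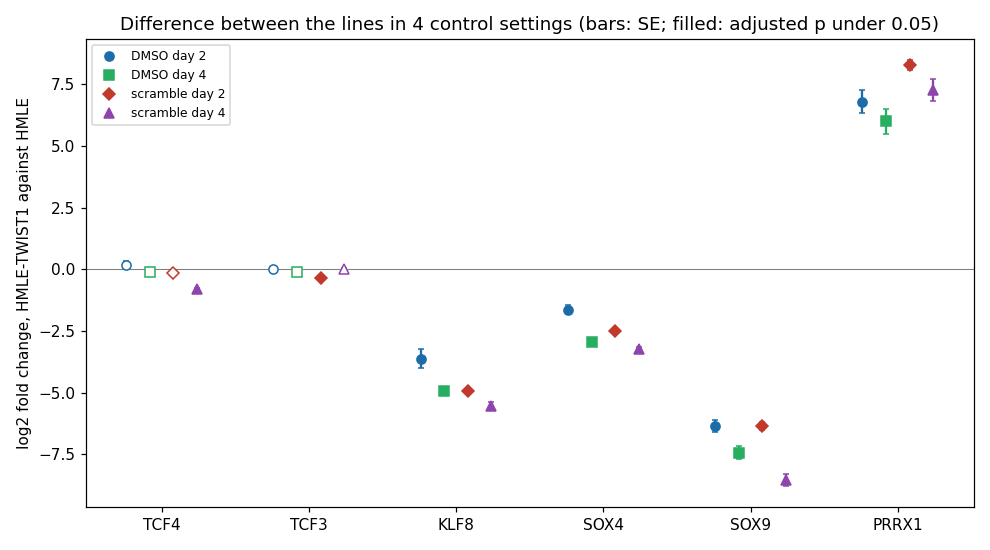
Difference between HMLE-TWIST1 and HMLE (y axis, log2 fold change, bars SE) of the 6 factors (x axis) in 4 control settings (colours and shapes); filled points have an adjusted p under 0.05. KLF8, SOX4 and SOX9 lie below 0 and PRRX1 above 0 in all 4, while TCF4 and TCF3 lie within 0.18 of 0 except for TCF4 in scramble cells at day 4, at -0.81, and TCF3 in scramble cells at day 2, at -0.34.

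Chaetocin for 48 h raised 1 of the 6 factors and lowered up to 3. SOX9 rose at every dose, TCF4 fell at 150, 200 and 500 nM, KLF8 passed the test as lower at 100, 200 and 500 nM, and SOX4 at 500 nM. Past the threshold were 2 of the 6 at 100 nM, where 23.4% of all genes tested passed. With 150 nM it was 2, beside 34.1%, with 200 nM 3, beside 39.7%, and with 500 nM 4, beside 50.3%. The dose libraries and their DMSO libraries were in different parts of the deposited table, set apart by which genes were missing. A difference between the parts and the treatment therefore cannot be told apart. Epithelial markers summed to 2.81 to 3.16 CPM in DMSO and 6.77 to 8.46 CPM at 500 nM, mesenchymal markers to 24628 to 29312 and 5903 to 7996 CPM, and the leukocyte markers CD68 and ITGAM to 0.201 to 0.541 and 3.75 to 14.9 CPM. PTPRC, the leukocyte marker CD45, rose by 3.60 on the log2 scale at 500 nM (adjusted p = 1.95e-06). The part of these shifts in the factors' changes was not tested. In bulk RNA, fewer cells of a kind and less RNA per cell cannot be told apart.

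SOX9 had 7, 16 and 10 reads in DMSO. From the lowest to the highest dose it had 24, 44 and 42 reads, 39, 40 and 35 reads, 43, 41 and 49 reads, and 38, 55 and 78 reads. Every treated library lay above every DMSO library. In level this was 0.179 to 0.299 RPKM in DMSO and 0.883, 1.38 and 1.89 RPKM at 500 nM. The log2 changes were 1.75 (SE 0.25, adjusted p = 0.000138), 1.81, 2.09 and 2.34 (adjusted p = 1.44e-06) from the lowest to the highest dose. At 500 nM the mean SOX9 level was 6.42% of that of HMLE cells in DMSO, from 1.04% in HMLE-TWIST1 cells in DMSO.

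TCF4, the E2-2 gene, was at 2.30, 2.20 and 2.53 RPKM in DMSO. From the lowest to the highest dose it stood at 1.81, 1.75 and 1.97 RPKM, 1.62, 1.58 and 1.88 RPKM, 1.35, 1.35 and 2.01 RPKM, and 1.11, 1.15 and 1.39 RPKM. All 12 treated libraries were below the 3 DMSO libraries. The log2 changes were -0.35 (adjusted p = 0.086), -0.48 (0.0149), -0.61 (0.00264) and -0.97 (SE 0.14, adjusted p = 3.06e-05). The call at 150 nM was lost without DMSO replicate 3 (adjusted p = 0.0634) or 150 nM replicate 1 (0.0506) or 2 (0.0615), and with scaling by total reads (0.0852). At 100 nM TCF4 passed in 1 fit of all 51 libraries (0.00933) and with the replicate number as a block (0.0373).

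KLF8 reads were few: 20, 35 and 44 in DMSO and, in order of dose, 6, 13 and 15, then 19, 20 and 17, then 6, 12 and 19, then 7, 15 and 15. Replicate 1 was the lowest library in DMSO and at 100, 200 and 500 nM. The log2 changes were -1.24 (SE 0.37, adjusted p = 0.0229), -0.56 (0.262), -1.13 (0.0236) and -1.13 (0.0186). The calls hung on single libraries. Without DMSO replicate 3 the adjusted p was 0.0963, 0.0957 and 0.0793 at 100, 200 and 500 nM, without DMSO replicate 2 it was 0.0593 and 0.0552 at 100 and 200 nM, and without replicate 1 of the dose itself it was 0.0999, 0.143 and 0.1, with a log2 change of -0.69 in place of -1.13 at 200 nM. With precision weights the adjusted p at 100 nM was 0.0572.

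SOX4 was at 5.54, 6.79 and 4.48 RPKM in DMSO and 3.83, 3.55 and 3.84 RPKM at 500 nM, below every DMSO library. The log2 change was -0.59 (SE 0.17, adjusted p = 0.0089), and the call was lost without DMSO replicate 2 (adjusted p = 0.0543) and with scaling by total reads (0.06). At 100, 150 and 200 nM the changes were -0.27, -0.44 and -0.39 (adjusted p = 0.268, 0.0555 and 0.0807). In 1 fit of all 51 libraries SOX4 passed at 150 nM (0.00859) and 200 nM (0.0198). It also passed without DMSO replicate 3 at 150 nM and at 200 nM (0.0278 at the latter), and without 150 nM replicate 3 (0.0115).

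PRRX1 was at 20.9, 27.5 and 20.1 RPKM in DMSO and 9.53, 13.1 and 17.9 RPKM at 500 nM. Replicate 1 was the lowest at each of the 4 doses, at 8.91 to 9.69 RPKM. The log2 changes were -0.66, -0.79, -0.82 and -0.82 (adjusted p = 0.317, 0.200, 0.172 and 0.152), although the groups did not overlap at 150, 200 and 500 nM. With the replicate number as a block PRRX1 passed at these 3 doses (0.0372, 0.0288 and 0.0241), and with precision weights at 500 nM (0.0455), while the numbers did not pair DMSO with dose libraries.

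TCF3 was at 15.7, 15.0 and 14.3 RPKM in DMSO and 14.2, 13.8 and 15.4 RPKM at 500 nM, with log2 changes of 0.20, 0.14, 0.02 and -0.08, none of which passed (adjusted p = 0.133, 0.269, 0.862 and 0.473). With scaling by total reads the TCF3 changes were 0.34 (adjusted p = 0.0261), 0.33 (0.0218), 0.23 (0.0941) and 0.14 (0.288) in order of dose; that scaling moves the median of all genes by 0.14, 0.184, 0.197 and 0.213 at the 4 doses. In 1 fit of all 51 libraries TCF3 passed at 100 nM (0.0362).

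Within the dose libraries, 500 nM was set against 100 nM without any DMSO library, and 2 of the 6 genes passed, both lower, beside 17.2% of all genes. TCF4 fell by a log2 difference of -0.63 (SE 0.14, adjusted p = 0.00828), with all 3 libraries at 500 nM below all 3 at 100 nM. On the deposited log2 values it did not pass (adjusted p = 0.0604). For TCF3, at 19.6, 16.9 and 15.5 RPKM at 100 nM, the difference was -0.28 (adjusted p = 0.0459), and this was lost without 100 nM replicate 1 (0.164) or 2 (0.0649), and without 500 nM replicate 1 (0.0832), 2 (0.162) or 3 (0.0588), with scaling by total reads (0.202) and on the deposited log2 values (0.082). SOX9 differed by 0.59 (adjusted p = 0.108; 0.0188 without 500 nM replicate 1), KLF8 by 0.12 (0.862), SOX4 by -0.32 (0.217) and PRRX1 by -0.15 (0.854).

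The 80 nM exposure for 15 h, followed by recovery, gave 4 calls, SOX9 higher and TCF4, KLF8 and SOX4 lower, beside 36.6% of all genes tested. Here treated and DMSO libraries lay in 1 part of the table. SOX9 had 11, 14 and 4 reads in DMSO and 46, 77 and 54 after chaetocin (0.223, 0.305 and 0.113 against 0.826, 1.25 and 1.24 RPKM), a log2 change of 2.21 (SE 0.25, adjusted p = 3.52e-05). All 3 libraries, taken 48 h after the drug was removed, were above all DMSO libraries. TCF4 was at 2.34, 2.71 and 2.47 RPKM in DMSO and 1.86, 2.04 and 1.89 RPKM after chaetocin, without overlap, a change of -0.37 (SE 0.08, adjusted p = 0.00211). SOX4 was at 4.54, 4.86 and 3.72 RPKM and then 3.29, 3.01 and 3.10 RPKM, again without overlap, a change of -0.47 (SE 0.13, adjusted p = 0.0117).

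KLF8 had 30, 24 and 22 reads in DMSO and 20, 21 and 20 after the 80 nM exposure (0.266, 0.228 and 0.271 against 0.157, 0.148 and 0.201 RPKM). The change was -0.55 (SE 0.16, adjusted p = 0.0129), and it did not pass with precision weights (0.0838) or with all 51 libraries in 1 fit (0.0913). TCF3 changed by 0.11 (adjusted p = 0.196; 0.21 and 0.0227 with scaling by total reads) and PRRX1 by -0.05 (0.957; 0.05 with scaling by total reads). PRRX1 stood at 14.6, 23.7 and 19.8 RPKM in DMSO and 14.6, 22.1 and 19.0 RPKM after chaetocin. Epithelial markers summed to 1.56 to 3.04 CPM in DMSO and 4.35 to 5.16 CPM after chaetocin, and mesenchymal markers to 24207 to 30374 and 12553 to 18775 CPM. The leukocyte markers CD68 and ITGAM summed to 0.687 to 1.44 and 4.59 to 8.15 CPM, and the part of these shifts in the changes was not tested.

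**Figure D3:**
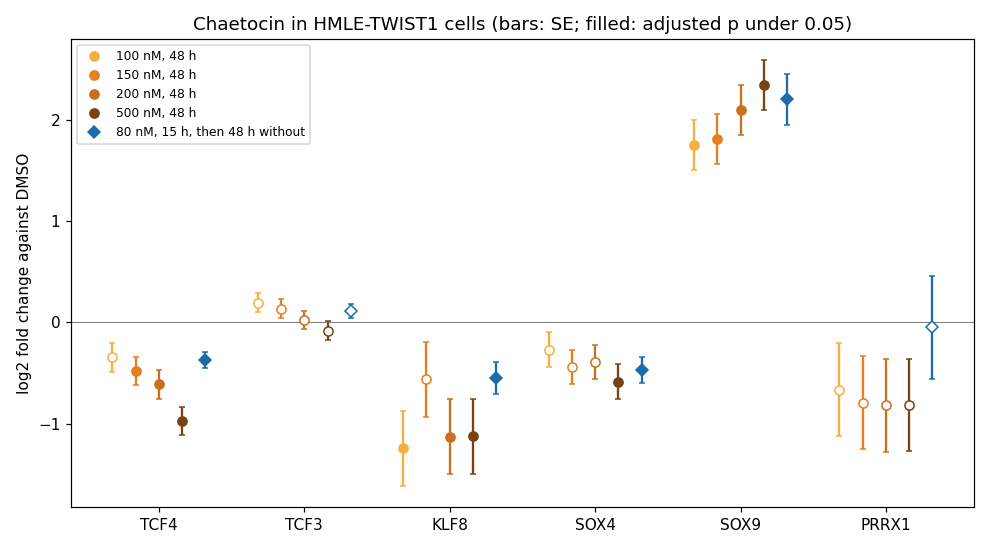
Change of the 6 factors (x axis) in HMLE-TWIST1 cells after chaetocin against DMSO (y axis, log2 fold change, bars SE) at 4 doses for 48 h (circles) and after 80 nM for 15 h with recovery (diamonds); filled points have an adjusted p under 0.05. SOX9 lies between 1.75 and 2.34 in all 5, and TCF4 steps down from -0.35 at 100 nM to -0.97 at 500 nM.

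Knockdown of SUV39H1 and SUV39H2 raised TCF4, KLF8, SOX9 and SOX4 in HMLE-TWIST1 cells at day 4. These 4 of 6 passed, all higher, beside 38.3% of all genes tested. At day 2 in HMLE-TWIST1 it was 3 of 6, KLF8, SOX9 and SOX4, all higher, beside 15.3%. In HMLE it was 2 of 6 at day 2, TCF3 and SOX4, both lower, beside 29% of genes, and 2 of 6 at day 4, TCF4 and SOX4, both higher, beside 26.5%. At day 4 in HMLE-TWIST1 the epithelial markers summed to 0.909 to 1.34 CPM in scramble and 5.66 to 6.34 CPM in knockdown cells, and the mesenchymal markers to 18948 to 20621 and 9328 to 9526 CPM. At day 2 in HMLE-TWIST1 the mesenchymal sum was 28896 to 30600 CPM in scramble and 21622 to 22867 CPM in knockdown cells, and at day 4 in HMLE the adipocyte sum was 379 to 447 and 223 to 280 CPM. The part of these shifts in the changes was not tested.

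TCF4 in HMLE-TWIST1 at day 4 was at 1.98, 1.85 and 1.79 RPKM in scramble and 3.97, 4.17 and 3.84 RPKM in knockdown cells. The knockdown libraries were above every other HMLE-TWIST1 library of the series, and the log2 change was 1.11 (SE 0.07, adjusted p = 1.24e-09). In HMLE at day 4 TCF4 went from 3.44, 3.34 and 3.01 RPKM to 4.01, 4.26 and 4.66 RPKM, without overlap, a change of 0.41 (SE 0.07, adjusted p = 0.00032). At day 2 it did not pass in either line, with changes of 0.06 (adjusted p = 0.585) in HMLE and 0.13 (0.263) in HMLE-TWIST1, the latter 0.23 (0.0201) without knockdown replicate 3.

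KLF8 in HMLE-TWIST1 at day 4 had 32, 34 and 19 reads in scramble and 63, 78 and 81 in knockdown cells (0.262, 0.285 and 0.157 against 0.553, 0.590 and 0.671 RPKM). There was no overlap, and the log2 change was 1.36 (SE 0.16, adjusted p = 3.52e-06). At day 2 it was at 0.263, 0.299 and 0.302 RPKM and 0.437, 0.444 and 0.381 RPKM, a change of 0.52 (SE 0.09, adjusted p = 0.000706). In HMLE the KLF8 changes were -0.18 (adjusted p = 0.174) at day 2 and -0.21 (0.374) at day 4, and both passed as lower only with precision weights (0.0193 and 0.0333). Even after knockdown at day 4, KLF8 in HMLE-TWIST1 was at 5.32% of the mean of HMLE scramble cells, from 2.06%.

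SOX9 in HMLE-TWIST1 at day 4 had 6, 7 and 17 reads in scramble and 34, 46 and 36 in knockdown cells (0.113, 0.135 and 0.322 against 0.684, 0.798 and 0.683 RPKM). The highest scramble library lay below the lowest knockdown library, and the log2 change was 1.84 (SE 0.25, adjusted p = 0.000158). At day 2 it had 17, 15 and 12 reads and then 31, 22 and 14 (0.277, 0.285 and 0.218 against 0.493, 0.520 and 0.322 RPKM), a change of 0.67 (SE 0.15, adjusted p = 0.00415). In HMLE, where SOX9 was abundant, the change was -0.01 at day 2 (adjusted p = 0.982) and 0.04 at day 4 (0.943; 95% interval -0.51 to 0.60), and scaling by total reads gave 0.06 at day 2. The day 4 mean in HMLE-TWIST1 knockdown cells was 0.912% of that in HMLE scramble cells, from 0.239%.

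SOX4 moved by small amounts. In HMLE-TWIST1 it was at 4.56, 4.15 and 3.80 RPKM in scramble and 5.47, 5.11 and 4.72 RPKM in knockdown cells at day 4, without overlap, a change of 0.31 (SE 0.08, adjusted p = 0.00553), and its day 2 change was 0.25 (0.0217). In HMLE it fell by 0.23 at day 2 (adjusted p = 0.0186) and rose by 0.48 at day 4 (0.000258), from 40.8, 38.4 and 37.7 RPKM to 48.3, 56.6 and 58.2 RPKM. The day 2 calls were lost without single libraries: in HMLE without scramble replicate 2 (adjusted p = 0.0515) or 3 (0.0960) or knockdown replicate 1 (0.0878) or 2 (0.0599) or with scaling by total reads (0.119), and in HMLE-TWIST1 without scramble replicate 3 (0.133) or knockdown replicate 2 (0.0754). With all 51 libraries in 1 fit, the calls of KLF8, SOX9 and SOX4 in HMLE-TWIST1 at day 2 (adjusted p = 0.265, 0.1 and 0.333), of SOX4 in HMLE at day 2 (0.246) and of SOX4 in HMLE-TWIST1 at day 4 (0.103) did not pass, and with precision weights neither SOX9 (0.149) nor SOX4 (0.0666) passed in HMLE-TWIST1 at day 2.

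TCF3 fell in HMLE at day 2, from 19.2, 19.1 and 19.8 RPKM in scramble to 14.0, 13.7 and 15.6 RPKM in knockdown cells, a log2 change of -0.42 (SE 0.07, adjusted p = 8.59e-05). These 3 scramble libraries held the highest group mean of TCF3 in the series, 19.4 ± 0.395 RPKM (SD, n = 3), and the same libraries enter its line difference and its day difference. Markers shifted in the same libraries: the epithelial sum was 11212 to 11671 CPM in scramble and 6498 to 7042 CPM in knockdown cells, the mesenchymal sum 964 to 1121 and 754 to 798 CPM, and the adipocyte sum 259 to 297 and 120 to 135 CPM, and their part in the change of TCF3 was not tested. In the other 3 knockdown comparisons the TCF3 changes were -0.09, 0.08 and -0.02 (adjusted p = 0.420, 0.418 and 0.824; the last was 0.01 with scaling by total reads).

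PRRX1 passed in none of the 4 knockdown comparisons. In HMLE, with 3 to 24 reads per library, the changes were 0.23 at day 2 (adjusted p = 0.435) and 0.79 at day 4 (0.244). Single libraries decided both: without scramble replicate 1, at 7 reads against 3 and 3, the day 2 change was 0.55 (0.00184), and without scramble replicate 2, at 22 reads against 5 and 4, the day 4 change was 1.35 (0.000853). In HMLE-TWIST1 the changes were 0.23 and 0.28 at days 2 and 4 (adjusted p = 0.502 and 0.683). All 3 knockdown libraries there were above all 3 scramble libraries at both days, from 19.3, 19.1 and 19.2 to 22.0, 23.98 and 21.9 RPKM at day 2, and with precision weights both changes passed (0.00275 and 0.0027).

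**Figure D4:**
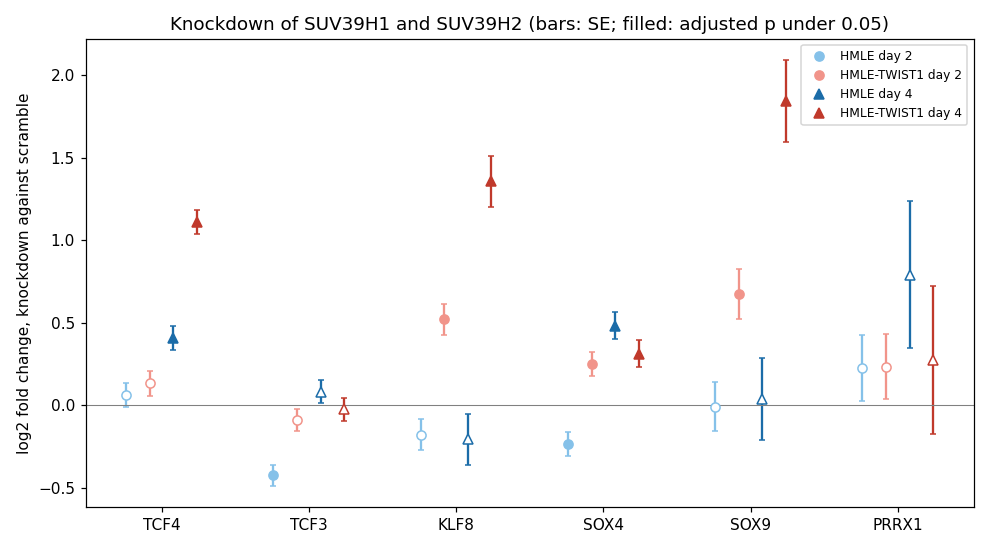
Change of the 6 factors (x axis) after knockdown of SUV39H1 and SUV39H2 against the scrambled duplex (y axis, log2 fold change, bars SE) in HMLE (blue) and HMLE-TWIST1 (red) at day 2 (circles) and day 4 (triangles); filled points have an adjusted p under 0.05. TCF4, KLF8 and SOX9 are highest in HMLE-TWIST1 at day 4, at 1.11, 1.36 and 1.84.

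The knockdown effect was compared between the lines in the same fits. At day 2 it was higher in HMLE-TWIST1 for 4 of 6 genes, TCF3, KLF8, SOX9 and SOX4, beside 12.2% of all genes. The differences were 0.70 for KLF8 (adjusted p = 0.00188), 0.68 for SOX9 (0.0421), 0.48 for SOX4 (0.00367) and 0.34 for TCF3 (0.0227). In 1 fit of all 51 libraries none of these 4 passed (adjusted p = 0.326, 0.324, 0.16 and 0.0622). The TCF3 call was lost without HMLE scramble replicate 3 (0.0661), HMLE-TWIST1 scramble replicate 2 (0.0709) or HMLE knockdown replicate 1 (0.0646) or 2 (0.0633). The SOX9 call was lost without any 1 of HMLE scramble replicates 1, 2 and 3, HMLE-TWIST1 scramble replicates 1 and 3, HMLE knockdown replicates 1 and 2 or HMLE-TWIST1 knockdown replicates 1 and 2 (adjusted p = 0.054 to 0.113). Both were also lost with scaling by total reads (0.072 for TCF3 and 0.0587 for SOX9) and on the deposited log2 values (0.062 and 0.101), and SOX9 with precision weights (0.175).

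At day 4 the knockdown effect was higher in HMLE-TWIST1 for 3 of 6, TCF4, KLF8 and SOX9, beside 23.1%. For SOX9 the lines differed by 1.80 (SE 0.35, adjusted p = 0.0043), and for KLF8 by 1.56 (SE 0.22, adjusted p = 9.73e-05). For TCF4 the lines differed by 0.70 (adjusted p = 7.32e-05) at day 4 and by 0.07 (0.717) at day 2.

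The knockdown effect was larger at day 4 than at day 2 for 3 of 6 genes in HMLE-TWIST1, TCF4, KLF8 and SOX9, beside 19.9% of all genes. TCF4 gained 0.96 (SE 0.10, adjusted p = 3.62e-08), SOX9 1.16 (adjusted p = 0.00923) and KLF8 0.82 (0.00157). In 1 fit of all 51 libraries KLF8 did not pass (0.153). In HMLE the day 4 effect minus the day 2 effect passed above 0 for 3 of 6, TCF4, TCF3 and SOX4, beside 17.5%. TCF3 differed by 0.45 (adjusted p = 0.00117), with its larger effect at day 2, -0.42 (8.59e-05), against 0.08 (0.418) at day 4. SOX4, which had fallen at day 2 and risen at day 4 there, differed by 0.66 (SE 0.11, adjusted p = 6.25e-05) between the days. For TCF4 the difference in HMLE was 0.29 (adjusted p = 0.0478), and the call was lost without day 2 scramble replicate 2 or 3, day 2 knockdown replicate 1 or 3, day 4 scramble replicate 3 or day 4 knockdown replicate 3 (0.062 to 0.108), with the replicate number as a block (0.0526), with scaling by total reads (0.0569), on the deposited log2 values (0.114) and in 1 fit of all libraries (0.16).

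Chaetocin and knockdown moved SOX9 in 1 direction and TCF4, KLF8 and SOX4 in opposite directions in HMLE-TWIST1 cells at day 4. The difference between the 80 nM effect and the knockdown effect, a comparison chosen after these values were seen, passed for 3 of 6 genes, all lower after chaetocin, beside 32.8% of all genes. It was -1.46 for TCF4 (SE 0.15, adjusted p = 1.38e-10), -1.89 for KLF8 (SE 0.36, adjusted p = 5.11e-05) and -0.76 for SOX4 (SE 0.19, adjusted p = 0.00171). For SOX9 it was 0.39 (95% interval -0.31 to 1.09, adjusted p = 0.418), for TCF3 0.16 (0.266) and for PRRX1 -0.30 (0.758). The 2 treatments had their own controls in different parts of the deposited table, and they differed in length of exposure as well as in kind. The scramble cells at day 4 themselves were lower in TCF4 than the DMSO cells at day 4, at 1.79 to 1.98 against 2.34 to 2.71 RPKM, and the knockdown cells, at 3.84 to 4.17 RPKM, were above both.

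Control cells at day 4 were also set against those at day 2. In HMLE scramble cells 3 of 6 passed, beside 42.4% of genes: SOX9 rose by 1.71 (adjusted p = 1.89e-06), from 23.0, 25.6 and 23.95 to 78.0, 80.6 and 78.9 RPKM, SOX4 rose by 0.73 (7.82e-09), and TCF3 fell by 0.57 (5.71e-08). In HMLE cells in DMSO 4 of 6 passed, all higher, beside 35.3%: KLF8 by 1.15 (adjusted p = 0.000105), SOX4 by 0.97 (0.00153), SOX9 by 0.96 (0.00688) and TCF4 by 0.37 (0.00356, and 0.0863 with scaling by total reads). The 2 schedules differ in time in DMSO and in recovery as well as in day. KLF8 had its lowest HMLE group mean in DMSO at day 2, 3.78 RPKM, with 8.16 RPKM the next. The adipocyte sum of HMLE cells in DMSO went from 9.01 to 26.8 CPM at day 2 to 59.6 to 158 CPM at day 4. Their mesenchymal sum went from 1623 to 2667 CPM to 1332 to 1584 CPM. Their epithelial sum went from 5682 to 6832 CPM to 4837 to 6429 CPM. The part of these shifts in the changes was not tested. In HMLE-TWIST1 scramble cells 2 of 6 passed, both lower, beside 28.9%: TCF4 fell by 0.51 (adjusted p = 3.07e-06), from 2.76, 2.56 and 2.65 to 1.98, 1.85 and 1.79 RPKM, and TCF3 by 0.22 (0.0112; 0.0513 without day 2 replicate 3, 0.0708 without day 4 replicate 2 and 0.113 with scaling by total reads). The epithelial markers of scramble cells went from 11212 to 11671 CPM at day 2 to 6017 to 7005 CPM at day 4 in HMLE, and from 2.77 to 3.72 CPM to 0.909 to 1.34 CPM in HMLE-TWIST1. Their mesenchymal markers went from 964 to 1121 CPM to 2480 to 2961 CPM in HMLE and from 28896 to 30600 CPM to 18948 to 20621 CPM in HMLE-TWIST1, and the part of these shifts was not tested. In HMLE-TWIST1 cells in DMSO limma called 0 of 6, beside 0.344% of genes, the lowest unadjusted p was 0.088, for SOX4, and none passed under any alternative run.

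The partners and inhibitors of the E proteins were TCF12, TWIST1, TWIST2, ID1, ID2, ID3 and ID4, of which 6 of 7 were tested. In DMSO at day 2 all 6 differed between the lines, 4 higher in HMLE-TWIST1 and 2 lower, beside 47.5% of all genes, with ID1 lower by -3.69 (adjusted p = 8.69e-06) and ID3 by -2.64 (6.12e-06) on the log2 scale. TWIST1 itself, whose introduced and native copies are not separated here, was higher by 6.68. In DMSO at day 4 and in scramble cells at days 2 and 4, 3 were higher and 3 lower, beside 67.2, 68.7 and 74.4%. At 500 nM chaetocin 3 of 6 fell, a share like the 50.3% of all genes that changed: TWIST1 by -1.25 (adjusted p = 0.000293), ID2 by -1.09 (0.00494) and TCF12 by -0.36 (0.00469). After 80 nM and recovery 2 of 6 rose, beside 36.6% of genes called, ID3 by 1.27 (2.63e-06) and ID1 by 1.01 (6.91e-06), and TWIST1 stood at 0.33 (0.148). After knockdown in HMLE-TWIST1 at day 4, 3 rose and 1 fell, beside 38.3%: ID3 changed by 0.57 (0.000218), ID1 by 0.34 (0.00653), TCF12 by 0.16 (0.0316) and TWIST1 by -0.45 (0.000549). At day 2 in that line the ID genes went the other way. There 1 rose and 3 fell, beside 15.3%, with ID1 at -0.98 (1.86e-09) and ID3 at -0.81 (2.01e-05). Scramble cells of that line also changed from day 2 to day 4, ID1 by -1.34 (2.62e-13) and ID3 by -1.26 (1.51e-10).

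Of the 8 core factors of the transition (ZEB1, ZEB2, SNAI1, SNAI2, SNAI3, GSC, FOXC1, FOXC2), 6 were tested. In each of the 4 line comparisons 5 were higher in HMLE-TWIST1 and 1, FOXC1, was lower, where 47.5 to 74.4% of all genes differed. At 500 nM, where 50.3% of genes changed, 3 rose and 2 fell. FOXC2 was among those that rose, by 0.87 (adjusted p = 0.00195). The 2 that fell were SNAI2, by -1.01 (1.09e-05), and ZEB1, by -1.26 (0.000206). After 80 nM and recovery, beside 36.6% of genes called, 1 rose, FOXC2 by 0.82 (0.0416), and 1 fell, ZEB1 by -0.72 (3.82e-06). After knockdown in HMLE-TWIST1 at day 4, beside 38.3%, ZEB2 rose by 0.39 (0.0026) and SNAI2 fell by 0.17 (0.0244).

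Close relatives did not all follow the members. Of SOX11, SOX12, SOX8, SOX10, KLF3, KLF12 and PRRX2, 4 were tested, and in each line comparison 3 were higher in HMLE-TWIST1 and 1, KLF3, was lower, where 47.5 to 74.4% of all genes differed. In DMSO at day 2 PRRX2 was higher by 4.37 (adjusted p = 4.33e-07), in the direction of PRRX1, SOX12 was higher by 1.10 (1e-05), against that of SOX4, and KLF3 was lower by -1.76 (2.78e-08), in that of KLF8. KLF3 fell at 500 nM by -1.05 (3.19e-05) and after 80 nM by -0.50 (0.000175), and it stood at -0.05 (0.52) after knockdown in HMLE-TWIST1 at day 4.

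Genes described elsewhere as targets of the 6 factors (CDH1, EZH2, TUBB3, TNC, POSTN, MMP9, MMP14, COL2A1, COL11A2, ACAN) moved in both directions. At 500 nM 3 of the 8 tested rose and 2 fell, a share near the 50.3% of all genes that changed. CDH1, the E-cadherin gene that E proteins and KLF8 can repress, went from 1 read in each DMSO library to 15 to 31 reads at 500 nM, against 5930 to 8177 reads in HMLE cells in DMSO. EZH2, described as a SOX4 target, rose by 0.66 (adjusted p = 0.00202) and TUBB3 by 2.58 (1.03e-05), while the matrix gene TNC fell and the protease gene MMP14 changed by -0.93 (0.0405). After 80 nM 2 of 9 rose and 2 fell, beside 36.6% of genes called, with EZH2 at 0.51 (0.000594), TUBB3 at 2.60 (9.61e-06), MMP14 at -1.16 (1.88e-07) and CDH1 at 0.52 (0.206). After knockdown in HMLE-TWIST1 at day 4 1 of 9 rose and 2 fell, beside 38.3%: MMP14 changed by 0.26 (0.004) and COL11A2 by -1.08 (0.0101), and TNC fell. COL2A1 and ACAN, are cartilage genes known to respond to SOX9: COL2A1 stood at 0.18 (0.683) in that comparison, and ACAN was not tested.

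Over the 17 group means of log2 CPM, and among 11848 genes, the genes most like each factor were found by Pearson's r, given as a description since the points share lines and parts of the table. SOX9 was most like CASZ1 (0.993), MAST4 (0.992) and BAIAP2L1 (0.991), KLF8 like RTKN, CELSR2 and CDC42SE1 (all 0.991), and SOX4 like GFOD1 (0.990), LNX2 (0.989) and KIAA0247 (0.989). PRRX1 was most like RGAG4 (0.995), COL6A2 (0.994) and LAMA4 (0.994), and TCF4 like XRN1 (0.963), ANKFY1 (0.952) and SYNRG (0.943). TCF3 had no close match, with TKT at 0.797, IMPA2 at 0.789 and PPCDC at 0.780.

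Among the members, KLF8 and SOX9 had an r of 0.909 over all 17 groups and -0.48 over the 11 HMLE-TWIST1 groups. TCF4 and KLF8 had 0.673 over all groups and 0.915 over the 11 HMLE-TWIST1 groups. SOX9 and SOX4 had 0.940 over all, 0.952 over the 6 HMLE groups and -0.42 over the HMLE-TWIST1 groups. In rank order of level, the SOX9 means of the 11 HMLE-TWIST1 groups placed the 4 doses and the 80 nM group first (0.858 to 1.38 RPKM). Knockdown at day 4 (0.722) came next, and its range overlapped that of 100 nM. Knockdown at day 2 (0.445) followed, and then the 4 control groups (0.190 to 0.260), whose ranges overlapped one another. For TCF4 the lowest mean of all 17 groups was that at 500 nM, 1.22 ± 0.150 RPKM (SD, n = 3), and the highest were those after knockdown at day 4, 4.31 ± 0.326 RPKM in HMLE and 3.99 ± 0.166 RPKM in HMLE-TWIST1, whose ranges overlapped.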

How the data were processed

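Total RNA depleted of ribosomal RNA was sequenced with a stranded kit in 51 libraries, 17 groups of 3. The submitters' processing notes name STAR, HTSeq and hg19 (GRCh37), without versions, and whether counting used strand was not given in the sources used here. The deposited log2 RPKM values fell into 3 parts, set apart by which genes were missing. That the parts were processed separately was inferred from this, and the sample labels do not name them. Whole reads were recovered from them for 100% of values within 0.02 reads (largest distance 4.25e-08), giving 7897060 to 15662385 reads per library. These are counts of reads, without molecular identifiers. A further 81 columns could not be tied to a sample and were not used.

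Genes were kept if 3 or more libraries reached a CPM worth 10 reads and the total reached 15, and were tested with limma 3.58.1 (statmod 1.5.0, R 4.3.3) on log2 CPM with a prior count of 2, trimmed-mean scaling and robust moderation, in 7 fits, with Benjamini-Hochberg adjustment over all genes and a threshold of 0.05. The test was checked on simulated data. There were 23 comparisons, of which 1, the 80 nM effect minus the knockdown effect, was added after values were seen. Levels come from a joint scaling of all libraries over 19007 symbols, and RPKM uses the gene lengths implied by the deposited values. The 6 genes and all lists were chosen with earlier results of these data known. From each list the genes with the smallest adjusted p per family of comparisons were selected for naming. Not all of these are given here, for example POSTN between lines and ZEB2 between days are not. Further list genes (KLF3, CDH1, EZH2, COL2A1, TCF12 and others) were named after their values were seen.

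Alternatives were another scaling (median of ratios, total reads), no filter, a prior count of 0.5, precision weights, a replicate block, all 51 libraries in 1 fit, the deposited log2 RPKM, and leaving out each library. Deviations of same-numbered libraries had an r above 0 in every pair in several comparisons, among them 80 nM against DMSO (0.0225 to 0.232). The values were highest for 500 against 100 nM (r = 0.182 to 0.462). The main test of that comparison used group means without pairs, and the numbers entered only in the replicate block. The labels give no source for such pairs. The block gave adjusted p = 0.0237 for TCF3 in that comparison and changed no call there. Sequences are from RefSeq, GRCh38.p14; promoters were found for 5 of the 6 genes, not SOX9, and no coordinates were taken to hg19.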

Additional observations from a re-analysis of the deposited data

Results flagged for a closer look

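The difference between the lines in the knockdown effect passed the test (limma, Benjamini-Hochberg adjusted) for 7 values, all higher in HMLE-TWIST1 than in HMLE on the log2 scale. At day 2 they were TCF3, 0.34 (adjusted p = 0.0227), KLF8, 0.70 (0.00188), SOX9, 0.68 (0.0421), and SOX4, 0.48 (0.00367), beside 12.2% of all genes. None of these 4 passed with all 51 libraries in 1 fit (0.0622 to 0.326). At day 4 they were TCF4, 0.70 (7.32e-05), KLF8, 1.56 (9.73e-05), and SOX9, 1.80 (0.0043), beside 23.1% of all genes.

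The difference between day 4 and day 2 in the knockdown effect passed for 6 values. In HMLE they were TCF4, 0.29 (adjusted p = 0.0478), TCF3, 0.45 (0.00117), and SOX4, 0.66 (6.25e-05), beside 17.5% of all genes. In HMLE-TWIST1 they were TCF4, 0.96 (3.62e-08), KLF8, 0.82 (0.00157), and SOX9, 1.16 (0.00923), beside 19.9%. With all 51 libraries in 1 fit TCF4 in HMLE (0.16) and KLF8 in HMLE-TWIST1 (0.153) did not pass. SOX9 and KLF8 in HMLE-TWIST1 rest on 4 to 78 and 6 to 81 reads per library over the series.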

How the results depend on the processing

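Of 71 calls among the 6 genes, none changed direction under any alternative run; 12 of 68 were lost with all 51 libraries in 1 fit, 9 with total reads, 5 with precision weights, 5 of 57 with deposited log2 RPKM, 1 each with median of ratios, no filter, a prior count of 0.5 and the replicate block, and 44 of 522 when a library was left out. Calls were gained without a change of sign as well: 7 with precision weights, 4 with all 51 libraries, 3 with total reads and 16 without a library, among them SOX9 between days in scramble HMLE-TWIST1 without day 4 replicate 3 (-0.88, adjusted p = 3.03e-05). With total reads TCF3 between lines in scramble cells at day 4 passed too, with its sign changed (0.38, adjusted p = 0.000237). The replicate block cost TCF4 its day difference in HMLE (0.29, adjusted p = 0.0526), and gave 4 further calls, TCF4 at 100 nM (adjusted p = 0.0373) and PRRX1 at 150, 200 and 500 nM (0.0372, 0.0288 and 0.0241). For 500 against 100 nM, 2 calls became 1 with median of ratios, total reads or no filter, 0 with log2 RPKM, and 1 to 2 without single libraries. With all 51 libraries, 11 knockdown calls became 6, and 7 calls for a line difference in the knockdown effect became 3. The causes were not tested.

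Differences that passed no test in the main analysis changed sign as follows. With total reads: TCF3 between lines in DMSO at day 2 (0.0116) and day 4 (0.12) and in scramble cells at day 4 (0.38), at 500 nM (0.14), after knockdown in HMLE-TWIST1 at day 4 (0.00600) and between days in DMSO HMLE (-0.13), TCF4 between lines in DMSO at day 4 (0.11) and between days in scramble HMLE (-0.0224), PRRX1 after 80 nM (0.0486) and between lines in its day 2 knockdown effect (-0.00318), and SOX9 after knockdown in HMLE at day 2 (0.0583). With other settings: TCF3 between lines with all 51 libraries (0.0129 in DMSO at day 2, 0.0120 in scramble at day 4), and in the latter with median of ratios (0.0164), weights (0.00113) and log2 RPKM (0.0631); SOX9 after knockdown in HMLE at day 2 with log2 RPKM (0.0241) and between days with median of ratios (0.0295) and all 51 libraries (0.0451); and PRRX1's line difference in the day 2 knockdown effect with a prior count of 0.5 (-0.0785), weights (-0.0907) and log2 RPKM (-0.0202).

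Without single libraries the ranges that crossed 0 were, for TCF3, -0.0350 to 0.0395 (lines, DMSO day 2), -0.0391 to 0.0576 (lines, scramble day 4), -0.0329 to 0.0715 (200 nM), -0.0747 to 0.0317 (knockdown, HMLE-TWIST1 day 4) and -0.00143 to 0.11 (knockdown by day, HMLE-TWIST1). For KLF8 they were -0.11 to 0.45 (500 against 100 nM), -0.11 to 0.0371 (knockdown by day, HMLE) and -0.35 to 0.0114 (days, DMSO HMLE-TWIST1). For SOX9 they were -0.10 to 0.0392 and -0.0102 to 0.0434 (knockdown, HMLE days 2 and 4), -0.0433 to 0.0690 (knockdown by day, HMLE) and -0.36 to 0.21 (days, DMSO HMLE-TWIST1). For SOX4 they were -0.0142 to 0.11 (knockdown by day, HMLE-TWIST1) and -0.0465 to 0.0739 (days, scramble HMLE-TWIST1). For PRRX1 they were -0.44 to 0.12 (500 against 100 nM), -0.24 to 0.11 (80 nM), -0.32 to 0.18 (knockdown by line, day 2), -0.0199 to 0.0610 (knockdown by day, HMLE-TWIST1) and -0.10 to 1.10 (days, DMSO HMLE). Depth limits SOX9 and KLF8 in HMLE-TWIST1 and PRRX1 in HMLE, which had 4 to 78, 6 to 81 and 3 to 52 reads per library.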
